A study of Mus musculus with 8 samples.

Results

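The genes described here are 10 members of the JAK and STAT route of cytokine signaling: the kinase *Jak3*, the transcription factors *Stat3*, *Stat4*, *Stat5a* and *Stat5b*, the feedback inhibitors *Cish*, *Socs1*, *Socs2* and *Socs3*, and the kinase *Pim1*. They were chosen by gene symbol in the array annotation and not by their measured values, although earlier results of these data were known. All 10 are among the 18193 genes that have a probe set of their own (a group of short probes read together as 1 value). RNA was hybridised to 8 Affymetrix mouse expression arrays, and a level is the deposited log2 intensity, so that a difference of 1 is a 2-fold change. CD8+CD44+CD62L- T cells, an antigen-experienced CD8+ population, were sorted from lymph nodes (LN) or from tumors of female C57BL/6 mice, 6 to 8 weeks old at inoculation, that carried subcutaneous MC38 tumors, a transplanted mouse colon carcinoma line.

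The 4 groups were LN T cells without IR, LN T cells 5 h after IR, tumor T cells without IR and tumor T cells 5 h after IR, where IR was 5 Gy given to the whole body. All mice carried tumors, so the LN cells are from tumor-bearing animals too. Each group has 2 arrays, and each array holds cells pooled from 4 mice. The series describes separate experiments but the sample labels give only a replicate number, so p-values measure the spread between these pools and say nothing of the spread between single mice.

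Cytokines such as IL-2, IL-7, IL-12 and IL-15 bind receptors that carry JAK kinases, the kinases phosphorylate STAT proteins, and STAT dimers enter the nucleus and bind DNA. In T cells, JAK3 serves the receptors that share the common gamma chain, STAT5 relays IL-2, IL-7 and IL-15, STAT4 relays IL-12, and STAT3 relays cytokines of the IL-6 family and IL-21. *Cish*, *Socs1*, *Socs2* and *Socs3* are among the genes that STATs switch on, and their proteins damp the same receptors, so their transcripts are often read as a trace of recent cytokine signaling. *Pim1* is another STAT target and encodes a survival kinase.

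Transcripts of the sorted phenotype and of p53 targets served as checks. *Cd8a* and *Cd3e* lay between 12.09 and 12.67 on all 8 arrays. *Cd44* lay between 11.35 and 12.06. *Cdkn1a*, a p53 target that stops the cell cycle, was higher after IR in LN T cells by 3.84 on the log2 scale (adjusted p = 0.00392) and differed by 1.95 in tumor T cells (adjusted p = 0.138), not called. *Phlda3*, another p53 target, was higher by 4.12 in LN (adjusted p = 0.00178) and by 2.29 in tumor (adjusted p = 0.0301). *Mdm2*, the p53 inhibitor, was higher by 1.72 in LN (adjusted p = 0.00883) and differed by 0.91 in tumor (adjusted p = 0.216). Without IR, tumor T cells were already above LN T cells by 2.12 for *Cdkn1a* (adjusted p = 0.00689 by limma) and 1.16 for *Phlda3* (adjusted p = 0.0136). For *Mdm2* that difference was 0.22 (adjusted p = 0.556). After IR the mean of *Cdkn1a* was 11.75 in LN and 11.97 in tumor. The replicate arrays differed more in LN than in tumor: over all genes the SD of the difference between replicates was 0.42 in LN without IR and 0.57 in LN with IR, against 0.27 in each tumor group.

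Macrophage and monocyte markers and the mean of the fibroblast markers were higher in the tumor pools, although the cells had been sorted by FACS for CD3 and CD8. None of the neutrophil, dendritic cell, endothelial, or CD4 and regulatory T cell markers was called higher in tumor. Of 8 epithelial and carcinoma markers 1 was, with and without IR. Of 6 NK cell markers 1 was called higher in tumor and 1 lower without IR, and 2 higher and 1 lower with IR. The mean of 19 measured macrophage and monocyte markers was 6.52 to 6.96 on the 4 LN arrays and 8.91 to 10.93 on the 4 tumor arrays, with 16 of the 19 higher in tumor without IR and 15 with IR. *Lyz2* and *C1qa*, the 2 brightest of them in tumor without IR, reached 13.22 and 12.56 there, while *Ms4a7*, a macrophage gene at 8.14 to 10.54 in tumor, stayed at 4.06 to 4.35 in LN, under each array's lower quartile. The mean of 10 fibroblast markers was 6.35 to 6.70 in LN and 8.31 to 8.77 in tumor. The mean of 9 B cell markers ran the other way, at 7.76 to 8.58 in LN and 6.09 to 6.32 in tumor. The source of this RNA and its part in the values of the JAK, STAT and SOCS genes were not tested, and in pooled RNA fewer cells that express a gene cannot be told apart from less RNA per cell.

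**Figure D1:**
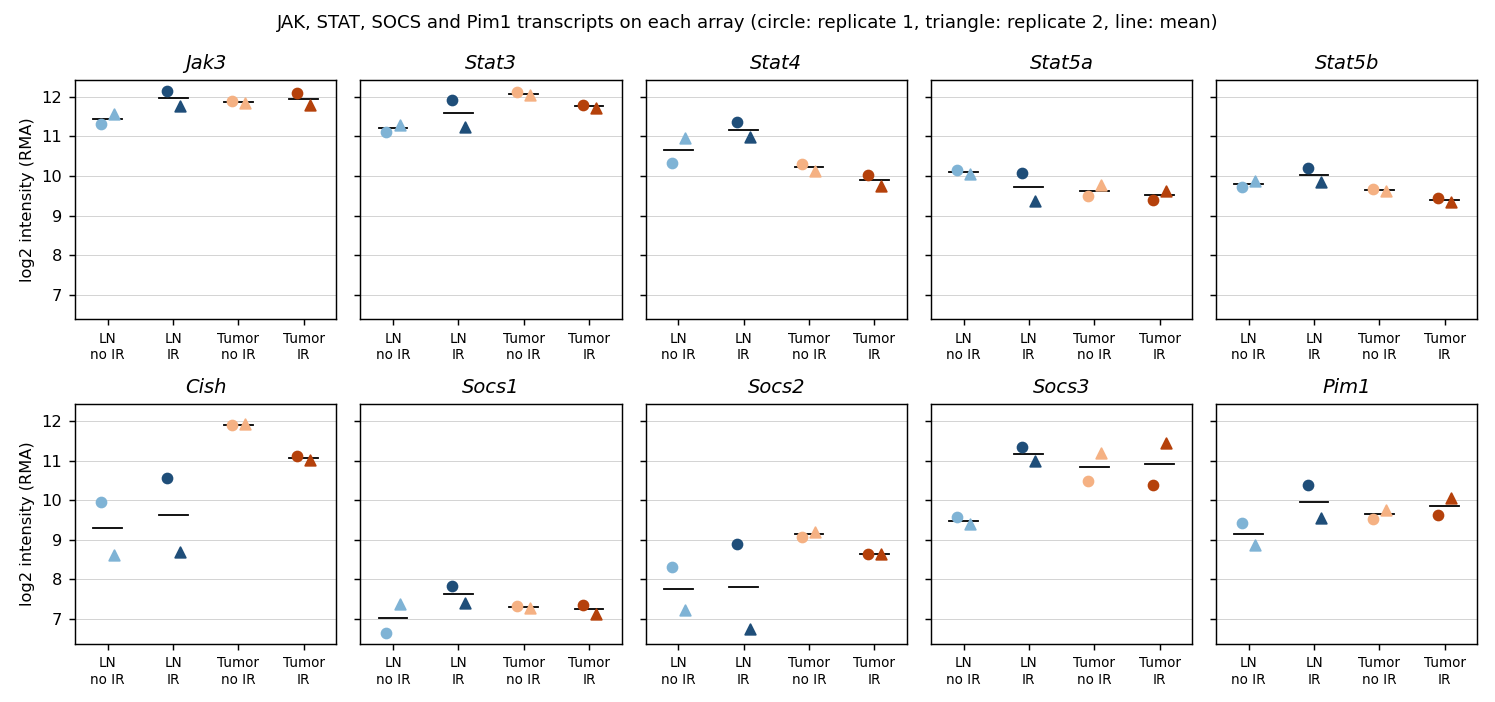
Level of the 10 genes on each array (y axis, log2 RMA intensity; x axis, the 4 groups; circles replicate 1, triangles replicate 2, lines the group mean). *Cish* and *Socs2* replicates lie apart in LN and close together in tumor, and *Socs3* is lowest in LN without IR, at 9.57 and 9.39.

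The group means of *Cish* and *Socs3* spanned the widest ranges of the 10 genes, 2.62 and 1.68, and the 250 bases before their start sites are shown because STATs act on such regions. The sequences are RefSeq's, from GRCm38.p6, written in the direction of transcription. Capitals mark TTCNNNGAA, the palindromic core of STAT sites, which reads the same on both strands and was the only motif searched.
Socs3, chr11:117969367-117969616, minus strand: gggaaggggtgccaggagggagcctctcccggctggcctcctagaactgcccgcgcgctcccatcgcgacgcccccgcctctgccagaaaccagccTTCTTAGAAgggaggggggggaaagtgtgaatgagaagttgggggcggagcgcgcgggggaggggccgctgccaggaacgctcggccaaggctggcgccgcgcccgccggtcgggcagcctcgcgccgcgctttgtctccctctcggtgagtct
Cish, chr9:107296409-107296658, plus strand: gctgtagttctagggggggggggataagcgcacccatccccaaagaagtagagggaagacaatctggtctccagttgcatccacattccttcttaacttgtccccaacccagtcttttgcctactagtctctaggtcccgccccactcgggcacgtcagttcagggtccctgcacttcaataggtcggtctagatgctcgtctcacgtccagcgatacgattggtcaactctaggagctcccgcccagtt
*Socs3* held 1 match, TTCTTAGAA, from 154 to 146 bases before the start, and *Cish* held none. Windows were at hand for 9 of the 10 genes (all but *Socs2*), 13 in all, and *Socs3* was the only gene with a match. Of 32851 promoter windows of this length in the table, 7.02% held at least 1 match. A match is a run of letters, not a measured site, and its absence says only that the letters are not in this window. On the same build *Stat5b*, *Stat5a* and *Stat3* are neighbours on chromosome 11.

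Tumor and LN T cells were first compared without IR, which gives the baseline difference between the tissues. *Cish* was higher in tumor T cells by 6.14-fold and was the only one of the 10 genes to pass. A gene was called when its adjusted p by limma was under 0.1 and its difference was 1 or more on the log2 scale in either direction. In this comparison 5.54% of the 18193 genes were called, 4.5% higher in tumor and 1.04% lower, beside 1 of the 10 genes higher, 0 lower and 9 not called. The median log2 fold change of the 10 was 0.46 and that of all genes -0.09, and an unadjusted p under 0.05 was found for 3 of the 10 and for 17.7% of all genes.

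*Cish*, whose protein binds the activated IL-2 receptor and blunts STAT5 signaling, was measured by 1 probe set. In LN T cells its level was 9.95 and 8.63 without IR and 10.57 and 8.68 with IR. In tumor T cells it was 11.89 and 11.92 without IR and 11.11 and 11.02 with IR. Every tumor array was above every LN array. Without IR the log2 fold change was 2.62 (SE 0.62, 95% interval 1.15 to 4.09, adjusted p = 0.062 by limma). The difference stayed between 1.96 and 3.28 when any 1 array was left out. The call was lost (lowest adjusted p 0.131) without LN no IR replicate 2, either tumor array without IR or either tumor array with IR, and it held without the other 3 arrays. With IR the difference was 1.44 (SE 0.62, -0.02 to 2.91, adjusted p = 0.217), which did not pass. Leaving out LN IR replicate 1 made it 2.39, and leaving out LN IR replicate 2 made it 0.50. In order of group means, tumor without IR (11.91 ± 0.02, SD, n = 2) stood above tumor with IR (11.07 ± 0.06), LN with IR (9.62 ± 1.33) and LN without IR (9.29 ± 0.93). No pair of neighbours in this order passed a test between them.

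*Socs2*, a SOCS protein best known for restraining growth hormone and STAT5, showed the same spread in LN. The LN arrays read 8.31 and 7.22 without IR and 8.88 and 6.75 with IR. The tumor arrays read 9.07 and 9.20 without IR and 8.63 and 8.64 with IR. Without IR both tumor arrays were above both LN arrays. With IR the tumor arrays lay between the LN arrays. The difference without IR was 1.37 (SE 0.65, -0.15 to 2.90, adjusted p = 0.343), not called, and on the next brightest probe set, 1418507_s_at, it was 1.49 (adjusted p = 0.176). The other 4 *Socs2* probe sets were dim, with group means from 3.97 to 5.92, and differed between tumor and LN without IR by 0.15 to 0.40. With IR the difference was 0.82 (adjusted p = 0.511). It became 1.88 when LN IR replicate 1 was left out, and -0.25 when LN IR replicate 2 was.

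In both LN groups replicate 1 was above replicate 2 for these genes. For *Cish* replicate 1 exceeded replicate 2 by 1.32 without IR and 1.88 with IR, for *Socs2* by 1.09 and 2.13, and for *Pim1* by 0.56 and 0.83. In tumor the *Cish* replicates differed by -0.03 and 0.09 and the *Socs2* replicates by -0.13 and -0.01. Other genes moved with this split: *Ifng*, the cytokine of activated T cells, looked up after its values were seen, was 11.03 and 8.68 in LN without IR and 10.73 and 8.38 with IR. The mean of 7 CD4 and regulatory T cell markers was 8.95 and 8.21 in LN without IR and 9.20 and 8.54 with IR. *Cd4* itself went the other way without IR, at 7.93 and 8.11, and was 8.43 and 8.30 with IR. The other markers of this list, among them *Ctla4* at 9.52 and 8.02 without IR, were higher in replicate 1 in both LN groups. What their part is in the *Cish* and *Socs2* values was not tested.

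*Socs3*, which blocks receptors that signal through gp130 and STAT3, was lowest in LN T cells without IR. It read 9.57 and 9.39 there, 11.35 and 10.98 in LN with IR, 10.48 and 11.19 in tumor without IR, and 10.39 and 11.45 in tumor with IR. Both LN arrays without IR were below the other 6. Against them tumor T cells without IR differed by 1.35 (2.56-fold, SE 0.38, 0.46 to 2.24, adjusted p = 0.105), just outside the call. It passed in 4 of the 8 fits that left out 1 array, those without LN IR replicate 1 or 2 or tumor IR replicate 1 or 2. It did not pass when 1 of the arrays it compares was left out. With IR the tissues differed by -0.24 (-1.13 to 0.65, adjusted p = 0.760). On the 2 dimmer probe sets the difference without IR was 1.08 (adjusted p = 0.180) and 0.94 (adjusted p = 0.333), the latter under the fold limit. With IR these probe sets gave -0.53 and -0.84. Within tumor, replicate 2 was above replicate 1 by 0.71 without IR and 1.06 with IR. The macrophage marker mean was also higher in replicate 2, at 10.15 and 10.93 without IR and 8.91 and 10.19 with IR, and its part in *Socs3* was not tested. In LN that mean was 6.52 and 6.96 without IR and 6.62 and 6.80 with IR.

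*Socs1*, the inhibitor of interferon and gamma chain cytokine signaling, was 6.65 to 7.39 in LN and 7.28 to 7.33 in tumor without IR, a difference of 0.29 (adjusted p = 0.644). With IR it was 7.42 and 7.84 in LN and 7.13 and 7.37 in tumor, a difference of -0.38 (adjusted p = 0.449). The 95% intervals of both, -0.34 to 0.91 and -1.01 to 0.24, still allow a change of over 1.5-fold.

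**Figure D2:**
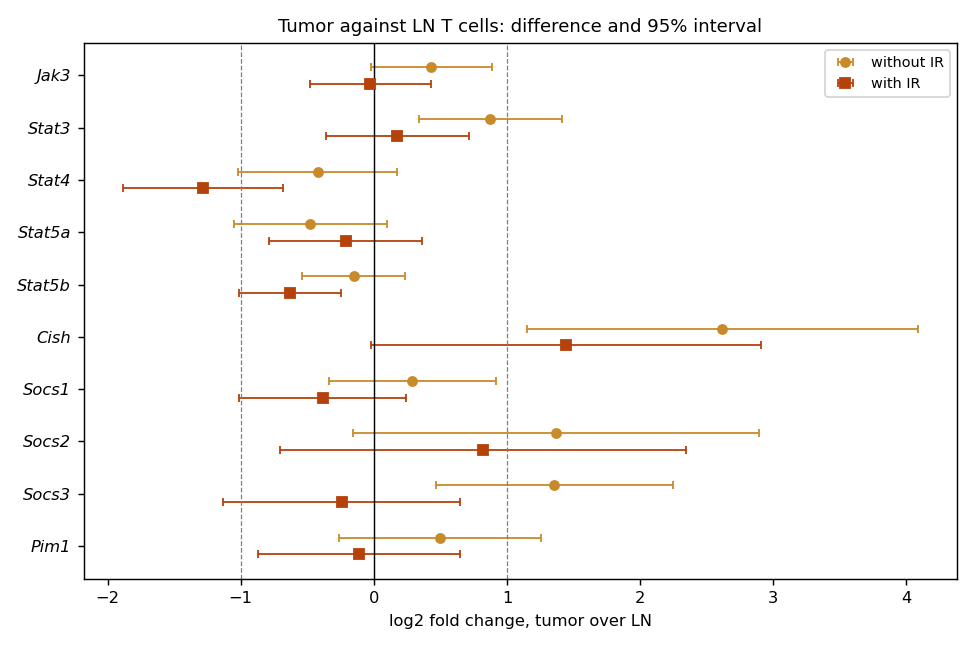
Log2 fold change of tumor over LN T cells (x axis) for each of the 10 genes, without IR (circles) and with IR (squares), with 95% intervals from limma that are not adjusted for the number of genes. Dashed lines mark the fold limit of 1 in each direction, which *Cish* passed without IR at 2.62 and *Stat4* passed with IR at -1.28 among the genes called.

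With IR the tissue comparison gave another gene. *Stat4*, the transcription factor of IL-12 signaling, was 2.43-fold lower in tumor than in LN T cells, the 1 call of the 10 genes. Over all genes 6.8% were called, 4.8% higher in tumor and 2% lower. The 10 genes had a median log2 fold change of -0.16 and all genes 0.06, and 3 of the 10 were above 0, or 7 of the 10 when the arrays were scaled to equal T cell identity genes, which moved the median of all genes by 0.27.

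The level of *Stat4*, on its 1 probe set, was 10.32 and 10.96 in LN without IR, 11.37 and 10.97 in LN with IR, 10.31 and 10.13 in tumor without IR, and 10.03 and 9.74 in tumor with IR. Both irradiated LN arrays were above all 4 tumor arrays, while LN no IR replicate 1 was close to the tumor arrays without IR. The difference with IR was -1.28 (SE 0.25, -1.88 to -0.68, adjusted p = 0.0279), and without IR it was -0.42 (-1.02 to 0.18, adjusted p = 0.461). The interaction, the difference between these differences, was -0.86 (unadjusted p = 0.0474, adjusted p = 0.782), which did not pass, so a larger gap after IR was not shown. The call with IR was lost without tumor IR replicate 1 (-1.43, adjusted p = 0.108) or tumor IR replicate 2 (-1.14, adjusted p = 0.202), and held in the 6 other fits that left out 1 array.

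*Stat5b*, 1 of the 2 closely related STAT5 genes, was below LN in tumor T cells with IR by less than the fold limit, -0.63 (SE 0.16, -1.02 to -0.25, adjusted p = 0.0629). Its levels were 10.19 and 9.85 on the irradiated LN arrays and 9.43 and 9.34 on the irradiated tumor arrays. Its dimmer probe set gave -0.63 (adjusted p = 0.124). *Stat5a*, its neighbour in the genome, differed by -0.48 (adjusted p = 0.385) without IR and -0.21 (adjusted p = 0.668) with IR. The dimmer *Stat5a* probe set gave -0.12 and -0.06.

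*Stat3*, which relays IL-6 family cytokines and IL-21, passed on the adjusted p alone without IR. It was 11.12 and 11.29 in LN and 12.12 and 12.03 in tumor, a difference of 0.87 (SE 0.23, 0.34 to 1.41, adjusted p = 0.0853), under the fold limit. Its other probe sets gave 0.87 on 1460700_at (adjusted p = 0.110), 0.87 on 1459961_a_at (adjusted p = 0.242) and 0.28 on the dimmest, 1424272_at (adjusted p = 0.621). With IR *Stat3* was 11.92 and 11.24 in LN and 11.80 and 11.72 in tumor, and the difference was 0.18 (adjusted p = 0.706). The other 3 probe sets did not share a sign there, at 0.40, -0.60 and 0.32.

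*Jak3*, the kinase bound to the common gamma chain, lay between 11.30 and 12.15 on all 8 arrays. Tumor and LN T cells differed by 0.43 (adjusted p = 0.314) without IR and by -0.03 (adjusted p = 0.953) with IR. Of 2 further probe sets that name both *Jak3* and its neighbour *Insl3*, 1427092_at was higher in tumor with IR by 1.07 (adjusted p = 0.048), and 1423021_s_at gave -0.01. Neither can be given to 1 of the 2 genes. *Pim1* differed by 0.49 (adjusted p = 0.503) without IR and -0.11 (adjusted p = 0.880) with IR. On its dimmer probe set these differences were 0.05 (adjusted p = 0.876) and -0.28 (adjusted p = 0.257).

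IR was then compared with no IR within each tissue. These comparisons share arrays with the tissue comparisons, so the values of a gene in both are not independent. In LN T cells 1.05% of genes were called (0.786% higher, 0.264% lower) and in tumor T cells 0.0989% (0.0934% higher, 0.0055% lower), and none of the 10 genes was called in either tissue. By limma, 3 of the 10 had an unadjusted p under 0.05 in LN, where 14.3% of all genes did, and 0 in tumor, where 16.6% did. The number of genes called depended on single arrays: with 1 array left out it ran from 67 to 1789 in LN, against 191 with all arrays, and from 0 to 90 in tumor, against 18. The 1789 were found without LN IR replicate 1, and the 90 without either LN IR array. The median log2 fold change of the 10 genes was 0.45 in LN, with 9 above 0 under each scaling tried, and -0.19 in tumor, with 3 above 0, or 7 when scaled to T cell identity genes. All genes had medians of 0.01 and 0.09.

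*Socs3* differed most with IR in LN. The difference was 1.68 (3.21-fold, SE 0.38, 0.79 to 2.57, unadjusted p = 0.00283, adjusted p = 0.133), and both irradiated LN arrays were above both others. Its 2 dimmer probe sets gave 1.70 (adjusted p = 0.119) and 1.76 (adjusted p = 0.158). On 1416576_at, whose name carries no mark of shared probes, the levels were 6.86 and 7.71 without IR and 9.42 and 8.66 with IR. Without LN IR replicate 1 the difference was 1.5 and passed (adjusted p = 0.0691). In the 7 other fits that left out 1 array it did not, and over all 21 alternatives it ran from 1.5 to 2.06 and passed in 6. In tumor *Socs3* differed by 0.09 (-0.80 to 0.98, adjusted p = 0.927). The interaction was -1.59 (SE 0.53, -2.85 to -0.34, unadjusted p = 0.0199, adjusted p = 0.762), so a response particular to LN was not shown. Over all genes 0% were called for the interaction, and an unadjusted p under 0.05 was found for 5.63% of them and for 2 of the 10. Without LN IR replicate 1, 770 genes were called for the interaction, none of them among the 10.

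**Figure D3:**
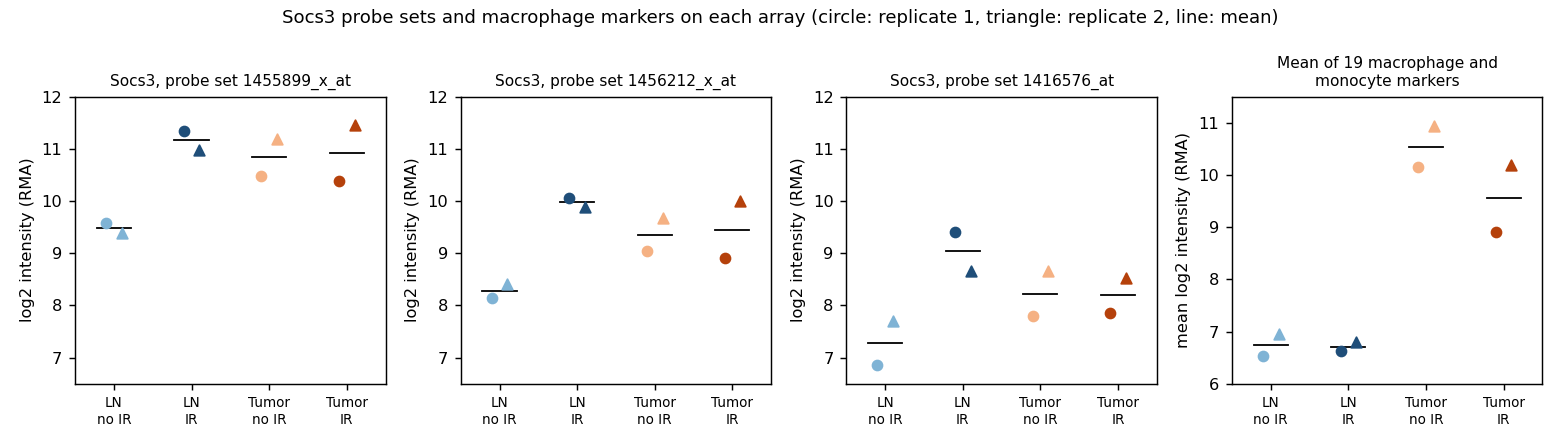
Level of the 3 *Socs3* probe sets and, in the right panel, the mean of 19 macrophage and monocyte markers on each array (y axes, log2 RMA intensity; circles replicate 1, triangles replicate 2, lines the group mean). On each probe set the irradiated LN arrays lie above the LN arrays without IR. The marker mean lies between 6.52 and 6.96 in LN, and its part in *Socs3* was not tested.

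*Pim1* was 9.43 and 8.88 in LN without IR and 10.38 and 9.54 with IR, a difference of 0.81 (unadjusted p = 0.0402, adjusted p = 0.320). Its other probe set gave 0.61 (adjusted p = 0.124). *Jak3* differed by 0.53 (unadjusted p = 0.0279, adjusted p = 0.282), with levels of 11.30 and 11.56 without IR and 12.15 and 11.77 with IR. For both genes every irradiated LN array was above every LN array without IR, as it was for *Socs3*, *Socs1* and *Stat4*. The share of all genes with such a split was not counted, so the split is a description only. For *Stat4* the nearest arrays were almost level, at 10.96 without IR and 10.97 with IR. For *Socs1* they were 7.39 and 7.42. *Socs1* differed by 0.61 (adjusted p = 0.351), *Stat4* by 0.53 (adjusted p = 0.388), *Stat3* by 0.38 (adjusted p = 0.484) and *Stat5b* by 0.23 (adjusted p = 0.551). *Stat5a* was the 1 gene below 0 in LN, at -0.39 (adjusted p = 0.501). The sign of both STAT5 genes turned with the probe set: the other one gave 0.08 for *Stat5a* and -0.15 for *Stat5b*. For *Stat3* the other probe sets gave 0.12 to 0.98, none called.

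In tumor T cells the widest difference with IR was that of *Cish*, -0.84 (-2.30 to 0.63, adjusted p = 0.522). Both irradiated tumor arrays were below both others, by more than the replicates differed, but the error of the fit is pooled with the LN arrays. *Socs2* stood likewise at -0.50 (adjusted p = 0.718). Over 21 alternatives the *Cish* difference ran from -0.88 to -0.51 and that of *Socs2* from -0.57 to -0.17. The lowest adjusted p by limma among them was 0.00448 for *Cish* and 0.0228 for *Socs2*, against 0.522 and 0.718 in the main fit. Neither gene was called in any of them. Both stayed under the fold limit throughout. In the main fit and in every fit that left out 1 array, the adjusted p did not pass either. *Stat4* differed by -0.33 (adjusted p = 0.535) and *Stat3* by -0.32 (adjusted p = 0.505), and with arrays scaled to equal T cell identity genes both were within 0.01 of 0. The 11 T cell identity genes had a median difference of -0.31 here and the 19 macrophage markers one of -1.11, with none of either list called, and their part was not tested. The other 6 genes lay between -0.25 and 0.20. On its dimmer probe set *Stat5b* differed by -0.62 (unadjusted p = 0.0212, adjusted p = 0.300).

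**Figure D4:**
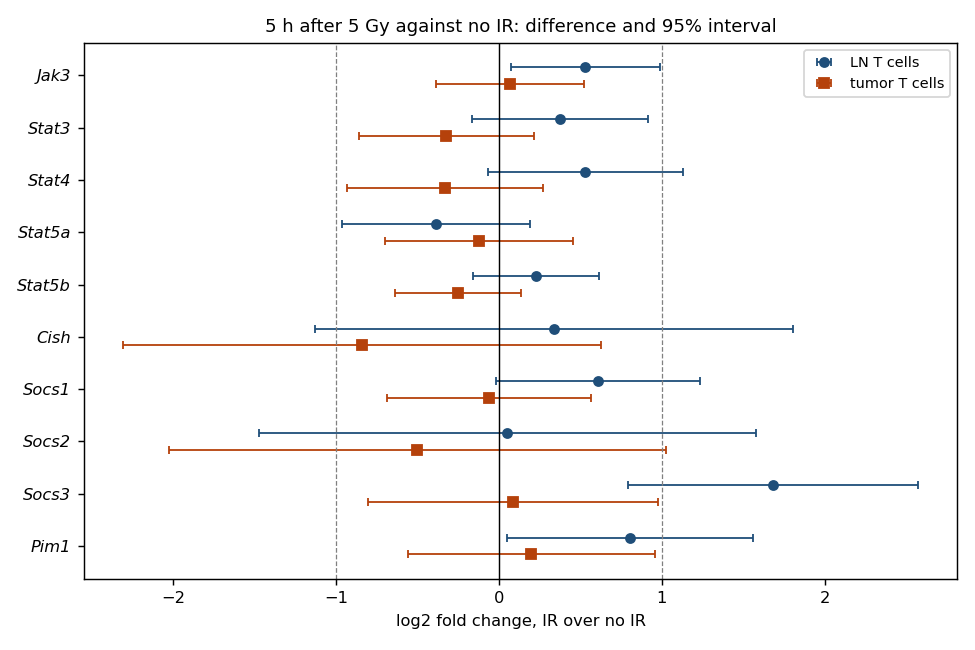
Log2 fold change of IR over no IR (x axis) for each of the 10 genes in LN T cells (circles) and tumor T cells (squares), with 95% intervals from limma that are not adjusted for the number of genes. Dashed lines mark the fold limit; *Socs3* in LN, at 1.68, is the only gene beyond it, and its adjusted p of 0.133 did not pass.

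Around these 10 genes, 75 other genes of the pathway were measured in 5 lists. Without IR 3 were higher in tumor, 2 were lower and 70 were not called. With IR 6 were higher, 3 lower and 66 not called. The medians of the 75 were 0.09 and -0.08. The background was 4.5% higher and 1.04% lower without IR, and 4.8% and 2% with IR.

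Of 22 cytokine receptors 1 was higher and 2 lower without IR, and 2 were higher and 2 lower with IR. *Il7r*, the IL-7 receptor chain of resting and memory T cells, was lower in tumor by 1.47 without IR (adjusted p = 0.0135) and by 1.75 with IR (adjusted p = 0.00634). It was 12.38 to 13.02 on the LN arrays and 10.85 to 11.29 on the tumor arrays. *Il6st*, which encodes gp130, the shared chain of IL-6 family receptors, was lower by 1.62 (adjusted p = 0.0141) and 1.58 (adjusted p = 0.0147), at 10.98 to 11.67 in LN and 9.17 to 9.90 in tumor. *Il12rb2*, the signaling chain of the IL-12 receptor upstream of STAT4, was higher in tumor by 1.72 (adjusted p = 0.00284) and 1.04 (adjusted p = 0.0196), at 8.48 to 9.62 in LN and 10.39 to 10.56 in tumor. The LN and tumor arrays did not overlap for these 3 receptors. They are named because they were called, so this adds no support to the calls. *Crlf2*, the receptor chain for TSLP, was higher with IR by 1.11 (adjusted p = 0.0176).

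Among 15 ligands *Csf2*, which encodes GM-CSF, was the 1 call in each comparison. It was higher in tumor by 2.25 without IR (adjusted p = 0.00176) and by 1.24 with IR (adjusted p = 0.0172), at 6.36 to 6.82 in LN, 8.70 and 8.97 in tumor without IR, and 7.85 and 8.22 in tumor with IR. None of the 5 other JAK and STAT genes was called in either comparison. Of 15 other SOCS, PIAS, phosphatase and adaptor genes *Ptpn6*, the SHP-1 phosphatase, was the only call, higher in tumor with IR by 1.62 (adjusted p = 0.0286).

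Of 18 other target genes and effectors, *Gfi1*, a transcriptional repressor, was higher in tumor by 1.14 (adjusted p = 0.0218) without IR and 1.09 (adjusted p = 0.0228) with IR. *Tbx21*, the T-bet transcription factor of effector T cells, was higher with IR by 1.67 (adjusted p = 0.00628). *Pim2*, a kinase related to *Pim1*, was lower with IR by 1.12 (adjusted p = 0.0148). In LN T cells *Tbx21* was lower after IR by 1.12 (adjusted p = 0.0971), from 9.90 and 9.70 to 8.96 and 8.40, the 1 call among the 75 for IR in LN, and none was called for IR in tumor. Without LN IR replicate 1 the calls among the 75 were 13 for IR in LN and 17 for tumor against LN with IR, and over all genes the shares called were 9.83% and 13.3%.

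**Figure D5:**
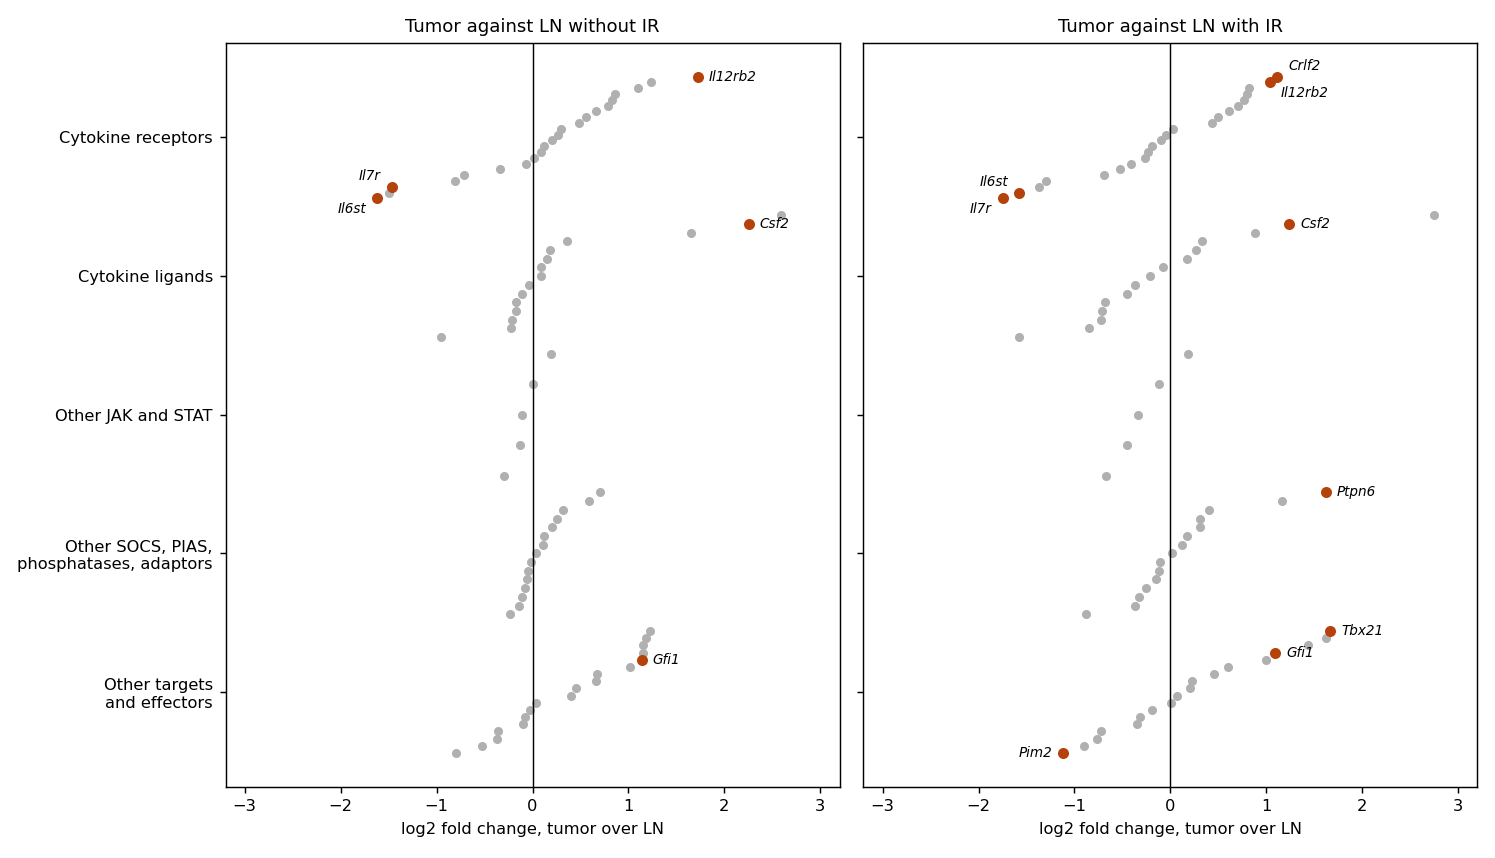
Log2 fold change of tumor over LN T cells (x axis) for the 75 other pathway genes by list (rows), without IR (left) and with IR (right). Filled dark points with names are the genes called, from *Csf2* at 2.25 to *Il6st* at -1.62 without IR, and grey points were not called.

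The genes whose levels most resembled those of the 4 most variable members were listed by Pearson r over the 8 arrays, which share their groups and normalization, as a description without a test. For *Cish* these were *S100a4* (0.994), *Cemip2* (0.990) and *Pxdc1* (0.985). For *Socs2* they were *Armh3* (0.986), *Dennd1a* (0.983) and *Capg* (0.981). Above 0.9 there were 293 genes for *Cish* and 248 for *Socs2*, and *Cish* and *Socs2* followed each other at 0.95. *Stat4* went with *Ccl5* (0.991), *Frg1* (0.990) and *Cnksr3* (0.983), among 103 genes above 0.9. *Socs3* had 15 such genes, led by *Apobec1* (0.980), *Per1* (0.956) and *Prkx* (0.949).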

How the data were processed

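RNA of sorted CD8+ T cells was measured on 8 arrays in 4 groups of 2. The authors processed the arrays with RMA and deposited log2 intensity values for 45101 probe sets, which were used as they stand. The version of RMA was not stated. Tests ran over the 35877 annotated probe sets, and a gene was read on the probe set of highest mean over the 8 arrays among those naming it alone (18193 genes). The 10 genes have 23 such probe sets, and 2 more name several genes. The 4 groups were fitted by least squares over all arrays with limma 3.58.1 (R 4.3.3), with 4 residual and 3.13 prior degrees of freedom. Contrasts were two-sided with Benjamini-Hochberg adjustment over all annotated probe sets. Intervals are 95% and unadjusted. A call needed an adjusted p under 0.1 and a difference of 1 or more on the log2 scale, as in the study's methods, which fitted robustly and intersected with SAM; the robust fit was run as an alternative and SAM was not run. The number of arrays limits the precision.

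The 10 genes, the pathway and marker lists and the tests were chosen with earlier results of these data known. Named genes are the 10 members, up to 4 called genes in each direction of each pathway list and comparison, the 3 genes most like each of the 4 members of widest range, the brightest other-cell markers and the checks of sort and IR; *Ifng* and *Ms4a7* were added after their values were seen. Of 78 listed pathway genes 75 were measured. Promoters are RefSeq's for GRCm38.p6. The fit was tested on simulated data. Alternatives were the robust fit, array weights, a variance trend, the replicate number as a block, only the groups compared, other thresholds, other probe set rules, cyclic loess, dim probe sets left out, arrays scaled to T cell identity genes, and each array left out. Replicate numbers were not taken to pair the arrays.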

Additional observations from a re-analysis of the deposited data

How the results depend on the processing

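Among the 10 genes, 1040 fold changes were recomputed, and 1004 kept their direction and side of the threshold or stayed uncalled, 28 came to pass, 8 ceased to pass and 0 called values turned sign; 33 uncalled values had the other sign. Tumor against LN without IR gave 1 called gene. It gave 0 at an adjusted p under 0.05, 2 with array weights, cyclic loess, a mean-variance trend, no fold limit or only the groups compared, 3 with the robust fit or scaling to T cell identity genes, and 0 to 3 with 1 array left out. Tumor against LN with IR gave 1, then 2 with no fold limit, the robust fit or that scaling, and 0 to 3 with 1 array left out. IR in LN gave 0, then 1 (*Socs3*) with cyclic loess, the mean of all probe sets, the robust fit or that scaling, and 0 to 1 with 1 array left out. IR in tumor and the interaction gave 0 in every alternative run; only the groups compared was not run for the interaction, which needs all arrays. Scaling to T cell identity genes moved the median of all genes by 0.33, 0.27, 0.38 and 0.33 in the 4 comparisons and by -0.05 for the interaction.

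Called pathway genes ranged from 3 to 16 without IR (5 as reported), 4 to 17 with IR (9), 0 to 13 for IR in LN (1), 0 to 3 for IR in tumor (0) and 0 to 3 for the interaction (0). Calls over all genes moved with them: without LN IR replicate 1 they numbered 1789 for IR in LN (191 as reported) and 770 for the interaction (0). The cause of these shifts was not tested.

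Replicate numbers deviated together within a tissue (r over genes of replicate 1 minus replicate 2 was 0.43 in LN and 0.43 in tumor) but not between tissues (-0.14 to 0.07), so the numbers did not pair all arrays. With the replicate block, tumor against LN gave 1 called gene without IR and 1 with IR, and IR gave 0 in LN and 0 in tumor, the counts as reported. Limited to the groups compared, an addition made after seeing the data, the replicate block gave 3 without IR, 1 with IR, 1 for IR in LN and 0 for IR in tumor. The 1 for IR in LN is *Socs3*, which passed there (adjusted p = 0.0788) and not with the block over all arrays (adjusted p = 0.140). With the tumor numbers crossed it gave 1 with IR.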
